A study of Arabidopsis thaliana with 8 samples.

Results

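The PIF3-binding sites that hold a G-box, the palindrome CACGTG, were collected from 4 ChIP-seq peak lists of dark-grown Arabidopsis seedlings. Peak summits less than 100 bp apart were joined, groups with summits from at least 2 of the lists were kept, and a site was taken as a member if the centre of a G-box lay less than 100 bp from the mean summit. By this rule, 532 of 1064 reproducible sites (50%) were members, and together they held 744 of the 14508 G-boxes of the nuclear genome (5.13%). Without replicate 4 the rule gave 313 members. P3M seedlings (Columbia) carry PIF3 with Myc repeats under 35S, a strong promoter active in most cells, and lack native PIF3 because of the *pif3-3* null allele. PIF3 is thus made outside its own control. Wild-type (WT) seedlings lack the epitope and served as the negative control for the polyclonal Myc antibody. Both genotypes were whole seedlings 2 d old, from seeds given 3 h of white light and then 15 min of far-red light at 21°C before growth in darkness. There were 4 libraries of each genotype, each from 4 pooled immunoprecipitates, and each P3M library had been compared by the authors with the WT library of the same number. Fold enrichment below is the authors' ratio of tags at a summit over the local background, and tags are the reads that the authors counted in a peak. The lists held 696, 2517, 526 and 3089 peaks in replicates 1 to 4, the total depth of each library is unknown, and tag numbers are therefore compared only within a replicate.

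PIF3 is a basic helix-loop-helix (bHLH) transcription factor of the phytochrome-interacting factors, which accumulate in darkness and are removed after light-activated phytochrome binds them. In darkness these factors promote hypocotyl elongation and hold back the opening and greening of the cotyledons. bHLH factors bind E-boxes, CANNTG, as dimers in which each partner reads one end of the box. The G-box is the E-box for which PIF proteins are best known, and the related PBE-box, CACATG or CATGTG, differs from it in the centre. Since CACGTG reads the same on both strands, the bases that follow it on each strand describe its surroundings fully.

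The boxes nearest the summit at the 10 leading sites are shown first, because these sites had the best mean rank of the p-value among the 120 members present in all 4 lists. Each line gives 26 bases of the top strand, 5′ to 3′, with the G-box in capitals (RefSeq, assembly TAIR10.1).
*BBX29*, chr5:22116006-22116031: gacttagaacCACGTGatccgcacct
*PIL1*, chr2:19299065-19299090: acgtgcacttCACGTGaatgccgcgt
*BBX28*, chr4:13675013-13675038: caggtgggctCACGTGgctacgaagc
*AT5G02580*, chr5:579338-579363: agcatatgccCACGTGggataatggg
*ATHB-2*, chr4:9443412-9443437: gggtcagatcCACGTGaagttcacat
*ATHB4*, chr2:18521572-18521597: ggaaggggttCACGTGggaagttgcc
*AFP3*, chr3:11384163-11384188: caagatcgtaCACGTGtcttatgttc
*CKX5*, chr1:28319008-28319033: ggaagaacgcCACGTGgatattcacg
*AT5G01475*, chr5:2614633-2614658: gaaggatggtCACGTGggtgcccatt
*AT3G02615*, chr3:4124402-4124427: ccttatggtcCACGTGtgatggagtt

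The arrangements described below are shown by the stretches that follow, from the top strand unless stated. The first set has 2 G-boxes whose centres lie 11 bp apart, the most frequent spacing, with both boxes in capitals, and the pair of *AT1G20875* lies inside its coding sequence.
*PIL1*, chr2:19299059-19299085: aagttCACGTGcacttCACGTGaatgc
*AT1G01260*, chr1:108264-108290: aaatcCACGTGaacttCACGTGctttt
*HB53*, chr5:26632288-26632314: aagtcCACGTGaacttCACGTGcatag
*BIM2*, chr1:25941536-25941562: cttatCACGTGaatccCACGTGtcatc
*AT5G05965*, chr5:1792691-1792717: gggttCACGTGatcccCACGTGgctct
*AT1G20875*, chr1:7261573-7261599: tgctaCACGTGgctacCACGTGggtcc
The second set has a G-box and a PBE-box at the same spacing of 11 bp, both in capitals.
*ATHB-2*, chr4:9443417-9443443: agatcCACGTGaagttCACATGctttc
*PIN3*, chr1:26739722-26739748: attccCATGTGcttctCACGTGctttc
*PRR9*, chr2:19232358-19232384: aaaccCACGTGtcatcCACATGaccac
The third set has a G-box followed by GG on both strands, and with the *AT5G02580* box above it makes up the boxes of this kind that lie in a member present in all 4 lists.
*AT5G56980*, chr5:23059485-23059510: cacctacaccCACGTGggtcgccata
*AT3G21320*, chr3:7503359-7503384: gctgatttccCACGTGggactactat
*ACHT4*, chr1:2712239-2712264: gagtgagaccCACGTGggtgatgtgt
The fourth set has 4 G-boxes in one site, in capitals, at the genes with the smallest distance from site to start among the 7 such sites.
*AFP3*, chr3:11384085-11384245: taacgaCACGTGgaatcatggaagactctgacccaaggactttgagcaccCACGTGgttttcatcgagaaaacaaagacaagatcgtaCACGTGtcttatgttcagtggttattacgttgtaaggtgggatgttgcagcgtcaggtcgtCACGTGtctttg
*BIM2*, chr1:25941483-25941563: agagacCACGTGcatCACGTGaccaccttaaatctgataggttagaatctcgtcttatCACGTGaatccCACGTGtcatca
The last set is from the sites next to the other genes whose G-boxes the study used as probes for binding in vitro, with every G-box of the stretch in capitals and that of *RGA1* read from the bottom strand, as in the probe.
*PHYB*, chr2:8139604-8139656: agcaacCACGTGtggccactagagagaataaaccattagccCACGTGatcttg
*RGA1*, chr2:259107-259145: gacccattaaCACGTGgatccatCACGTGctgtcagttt

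The 10 leading sites included those upstream of *BBX28*, *BBX29*, *PIL1*, *ATHB-2*, *ATHB4*, *AFP3* and *CKX5* (the plot of fold and tags at the leading sites). The other 3 lay upstream of *AT5G02580* and of the non-coding gene *AT3G02615*, and inside the non-coding gene *AT5G01475*. At *BBX29*, which encodes a B-box zinc-finger protein, the fold was 22.8, 27.0, 17.1 and 24.1 in replicates 1 to 4, and the peak held 314, 474, 708 and 1216 tags. At *PIL1*, a bHLH gene known for its rapid induction by shade, the fold was 19.8, 23.4, 16.4 and 34.1 with 284, 440, 610 and 1115 tags. At *BBX28*, a close relative of *BBX29*, the peak held 373, 607, 727 and 1406 tags, the highest number of any member in each replicate. These 3 sites were high in every replicate, at least 2 times the median member fold of 5.59, 5.19, 4.92 and 6.62 in replicates 1 to 4. The site far upstream of *ATHB-2* had 18.2, 18.5, 22.8 and 33.7 with 190, 230, 386 and 615 tags, and the site at *ATHB4* had 14.9, 16.4, 10.9 and 25.1. Both genes encode class II homeodomain-leucine zipper (HD-Zip) factors of the shade response. At *CKX5*, a cytokinin oxidase gene with 3 G-boxes at its site, the fold was 13.7, 16.3, 14.3 and 33.9, and at *AFP3*, which encodes an ABI5-binding protein, it was 10.7, 13.8, 10.0 and 23.5. *AT5G02580* had 16.5, 23.2, 14.9 and 23.0. Replicate 4 gave the highest fold at the leading sites other than *BBX29*, *BBX28* and *AT5G02580*, where replicate 2 was above it.

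**Figure D1:**
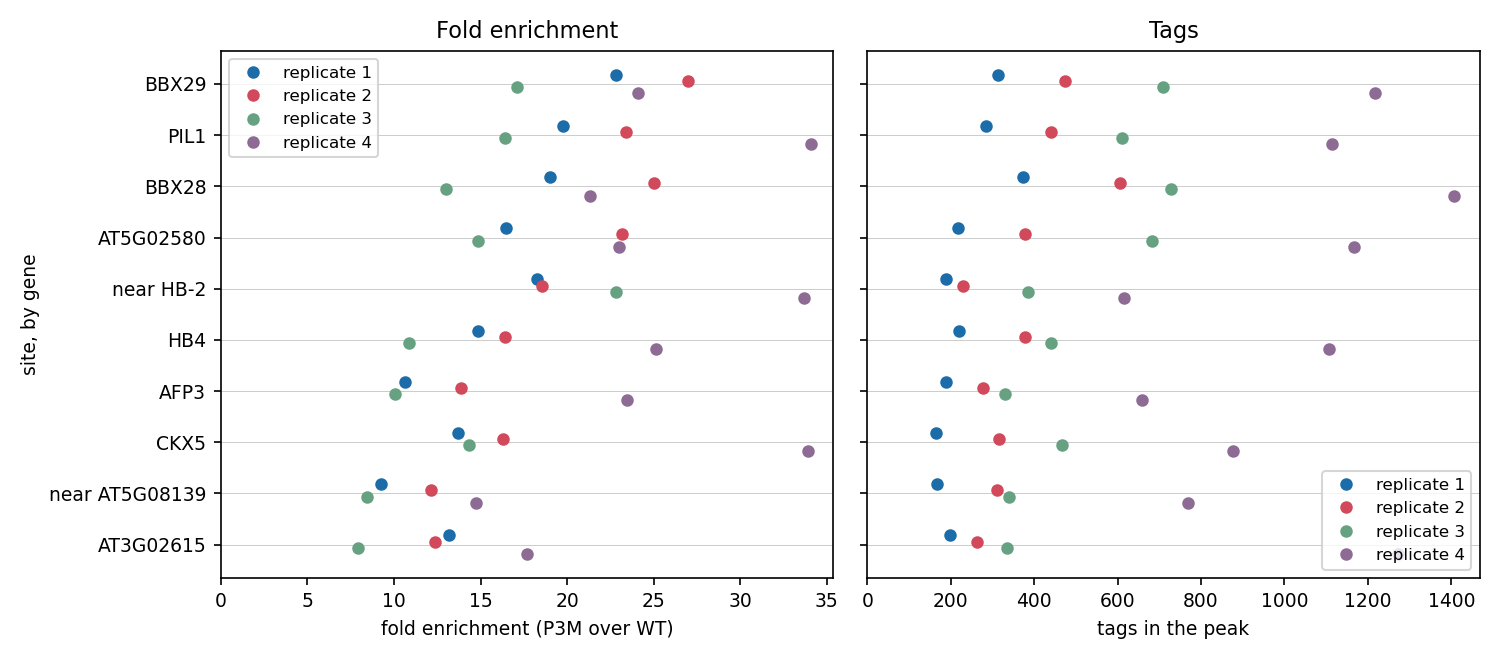
Fold enrichment (left) and tags in the peak (right) at the 10 leading sites, 1 point a replicate. Folds run from 7.93 at *AT3G02615* in replicate 3 to 34.1 at *PIL1* in replicate 4. Tags are not scaled between libraries, so only points of one replicate can be compared.

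Number of boxes was the first property examined. A single G-box was found at 366 members (68.8%), 2 at 127 (23.9%), 3 at 32 (6.02%) and 4 at 7 (1.32%), so that 166 members (31.2%, exact 95% binomial interval 27.3 to 35.3, which covers counting error only) held 2 or more. Members had a peak in replicate 1 at 296 sites (55.6%, against 45.5% of all reproducible sites), in replicate 2 at 441 (82.9%, against 77.7%), in replicate 3 at 231 (43.4%, against 41.7%) and in replicate 4 at 499 (93.8%, against 93.4%). Most of these peaks did not reach a false discovery rate under 5% as given by the authors. Only 10, 78, 1 and 121 of them did so in replicates 1 to 4. Of the members with 2 or more boxes, 50 (30.1%) were in all 4 lists, compared with 70 of those with 1 box (19.1%) and 16.4% of all reproducible sites. The 7 members with 4 boxes lay upstream of *AFP3*, *BIM2*, a brassinosteroid-linked bHLH gene, *SOB3*, an AT-hook gene named as a suppressor of a *phyB* mutant, *SHOT1*, *ACDO1*, a chloroplast kinase gene, *AT1G22065* and the pseudogene *AT2G19806*. Of these 7, 4 (57.1%) were in all 4 lists, against 22.6% of all members, but their folds were not uniformly high. *BIM2* had 4.23 and 3.55 in replicates 1 and 2 and no peak in the others, and *SHOT1* had 6.88, 5.04, 5.11 and 7.98. *ACDO1* had 5.70, 7.56, 6.80 and 17.8, and *SOB3* had 7.54, 8.52, 4.77 and 9.0. Only *AFP3* was among the 10 leading sites. Of the 12 members with 3 boxes and all 4 lists, *CKX5* and *AT3G02615* were the strongest by rank, followed by an intergenic site near *LYK4* with 11.3, 9.02, 7.84 and 18.6, *BIM1* with 9.25, 12.3, 8.45 and 17.2, and *AT5G05965* with 7.35, 8.21, 8.01 and 18.2. The remaining 7 were at *ATG12A*, *RGA1*, *AT2G28400*, *AT3G21320*, *AT4G35850*, *AT5G02590* and *AT5G60680*, with folds from 4.23 to 12.2.

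Fold enrichment differed little between members with 1, 2 and 3 boxes (the plot by number of boxes). The 7 members with 4 boxes had the highest median fold in every replicate, over only 5 or 6 peaks each. It was 6.48, 7.12, 5.11 and 8.49 in replicates 1 to 4, against 5.49, 5.12, 4.95 and 6.55 with 1 box. Members had a higher median fold than the 532 sites without a G-box in 4 of 4 replicates, by 0.11, 0.13, 0.26 and 0.17 on the log2 scale, with a mean of 0.17 ± 0.07 (SD, n = 4 replicates, exact sign-flip permutation p = 0.13, 0.2 after Benjamini-Hochberg adjustment over the 8 differences tested here). All such tests are two-sided, and with 4 replicates this (0.13 after rounding) is the smallest p that they can give, so that none can pass 0.05. Between members with 2 or more boxes and members with 1, the difference was 0.07, 0.06, -0.05 and 0.07, with a mean of 0.04 ± 0.06 (exact permutation p = 0.25, adjusted 0.286), which is within the spread between replicates. It turned to -0.05 when only members in all 4 lists were used, and was 0.09 with the same sign in 4 of 4 replicates when boxes had to lie within 50 bp. The difference between members and sites without a box was 0.10 over sites in all 4 lists and 0.11 over peaks at a p of 1e-10 or lower, again in 4 of 4 replicates. Tags per kb of peak were higher with 2 or more boxes in 4 of 4 replicates, by 0.11, 0.09, 0.03 and 0.13 on the log2 scale (mean 0.09 ± 0.04, exact permutation p = 0.13, adjusted 0.2). In linear terms, the median was 179, 219, 296 and 396 tags per kb at members with 1 box and 186, 222, 290 and 411 at members with 2. It was 211, 257, 390 and 517 at members with 3, and 218, 316, 406 and 761 at the 7 with 4. Sites without a box had 170, 211, 265 and 360. Across members with a peak in both lists, the fold of one replicate tracked that of another with a Spearman's rho from 0.603 to 0.786 over 135 to 410 sites, given as a description because the sites share libraries.

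**Figure D2:**
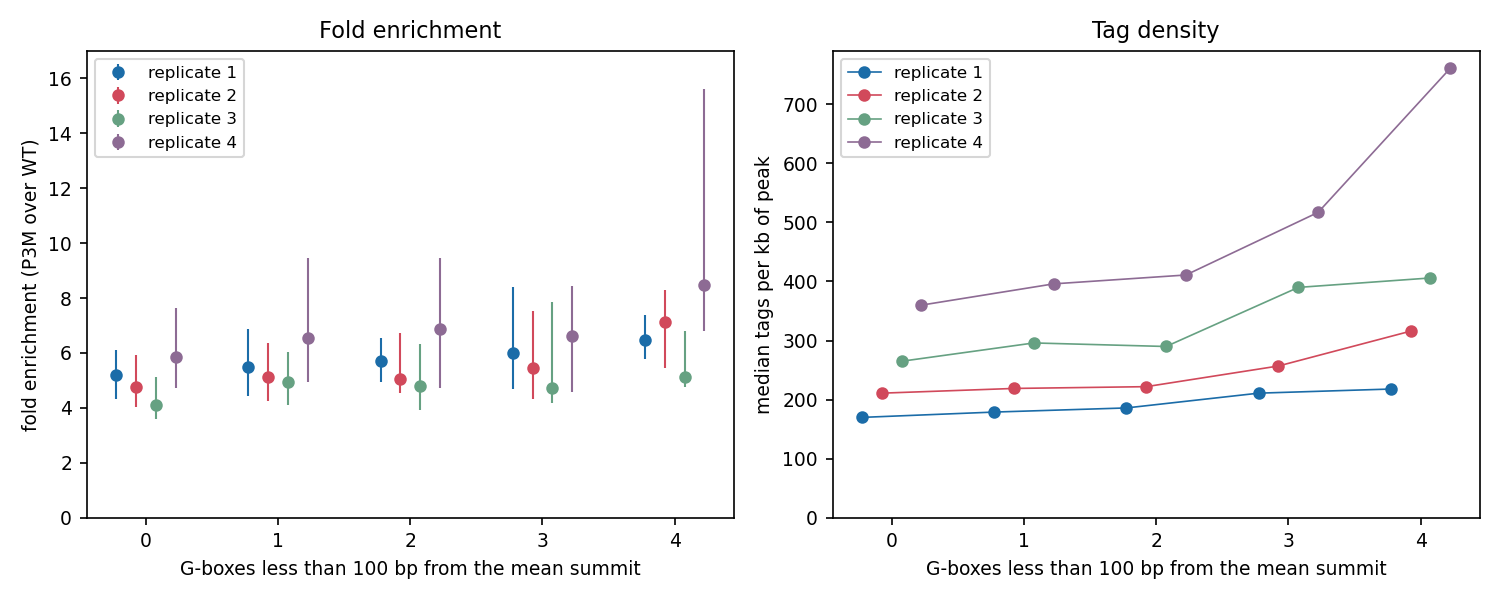
Left, median fold enrichment with its quartiles (bars); right, median tags per kb of peak; both by the number of G-boxes near the mean summit, 1 point a replicate. The medians of members with 1, 2 and 3 boxes overlap within their quartiles, and the group with 4 boxes holds only 7 sites.

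The bases next to the box differed between bound and other G-boxes. Read outward from both ends, the base after CACGTG was G at 35.9% of the 1488 half-sites of the members, against 25.2% in the nuclear genome and 27.6% of the half-sites of the 389 boxes that lay 100 to 1000 bp from a mean summit. T went the other way, with 25.6% in the members, 33.7% in the genome and 34.7% at 100 to 1000 bp. A and C were at 24.6% and 13.9% in the members and at 26.4% and 14.8% in the genome. At the second position, C was at 33.1% in the members and at 28.6% in the genome, while T was at 20.1% and 25.5%, and at the third position no base was more than 5 percentage points apart. Taken from the side of the genome, 111 of the 1148 boxes with G on both strands lay in a member (9.67%), compared with 51 of the 2102 boxes with A on one strand and T on the other (2.43%). G on one strand and A on the other gave 7.41%, C gave 6.39% and T gave 5.44%, so that each pairing with G lay above every pairing with T that lacked G, which ran from 2.43% to 4.01%. The pairings with neither G nor T were at 4.56% (A and A), 4.76% (C and C) and 5.70% (A and C), the last above G with T.

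The same comparison was made in each list with all of its summits, whether or not another list had them. In replicates 1 to 4, 6.10%, 11.8%, 4.44% and 12.3% of boxes with G on both strands lay less than 100 bp from a summit, against 2.54%, 5.04%, 1.75% and 6.55% of boxes with G on neither (the plot of G-boxes by class). The difference was 4.70 ± 1.90 percentage points (SD, n = 4) and in the same direction in 4 of 4 replicates (exact permutation p = 0.13, adjusted 0.2). Among boxes outside annotated genes alone, chosen as a check after the data were seen, the means over replicates were 16.0% and 6.24%, and among boxes with no other box within 100 bp they were 6.17% and 2.56%. Within the members, the difference in fold by the flanks of the nearest box depended on which peaks were used. Members whose nearest box had G on both strands differed from those with G on neither by -0.02, 0.03, 0.11 and 0.25 in median log2 fold (mean 0.09 ± 0.12, exact permutation p = 0.25, adjusted 0.286). Over members in all 4 lists it was 0.15, 0.28, 0.44 and 0.39 (mean 0.31 ± 0.13), over peaks at a p of 1e-10 or lower its mean was 0.21, and with means in place of medians 0.15, each with the same sign in 4 of 4 replicates (exact permutation p = 0.13 for each). Other settings gave less. With boxes within 50 bp the mean was 0.09, above 0 in 3 of 4 replicates. Without replicate 4 the mean was 0.05, above 0 in 2 of 3. Of the members with G on both strands 20 of 88 (22.7%) were in all 4 lists, and of those with G on neither 45 of 220 (20.5%). The *PIL1* site has no G after either of its boxes, as the sequences above show, and the same holds for *ACDO1* and for *AT5G28300*, a trihelix gene with 9.13, 9.03, 10.5 and 17.8. Another *PIL1* box, which the study also used as a probe (chr2:19298936-19298961), lies beyond the 100 bp limit and is followed by GG on 1 strand. The single box at *AT5G01275* has G on both strands, with folds of 17.4, 7.50, 9.91 and 14.2. The nearest coding gene to that site is *ST2A*, with the site at -1860 bp from its start. GC content moved with membership, with a median of 40.8% in windows reaching 100 bp to each side of the mean summit, 36.8% in those of the sites without a box, 38.8% in genomic windows with a G-box and 36.3% in all genomic windows. Its part in the flank difference was not tested.

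Looking 3 bases out, the half-sites most often found in members continued with GGT (46 of 270 nuclear half-sites, 17%), GGC (25 of 152, 16.4%) and GGA (43 of 370, 11.6%). This led, after the values were seen, to boxes followed by GG. On both strands this arrangement occurred at 26 boxes of the nuclear genome, and 12 of them (46.2%, exact 95% binomial interval 26.6 to 66.6) lay in a member, against 104 of 908 boxes with GG on 1 strand (11.5%) and 628 of 13574 with it on neither (4.63%). The interval covers counting error only, and not the choice of GG from the shares of these same boxes. In replicates 1 to 4, 9, 11, 7 and 12 of the 26 lay at a summit. Of the 26, 17 were outside annotated genes, and 9 of those were in members. In all 4 lists, 4 sites of this kind were present. The fold at *AT5G56980* was 7.67, 7.36, 7.25 and 16.1, that at *AT3G21320* was 9.02, 10.6, 4.31 and 9.61, and that at *ACHT4*, a thioredoxin-family gene, was 5.96, 5.44, 6.91 and 14.2. The fourth is the leading site at *AT5G02580*. No summit of any list lay near 11 of the 26.

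**Figure D3:**
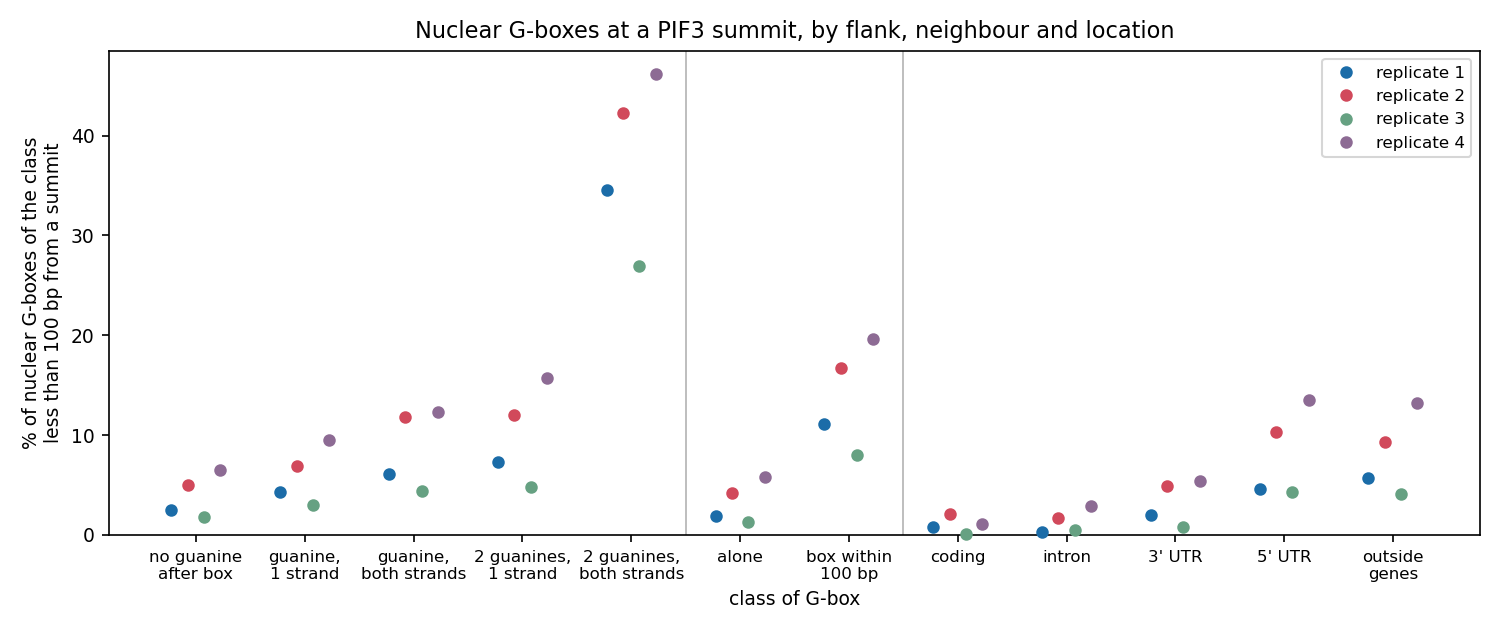
Percent of the nuclear G-boxes of each class that lay less than 100 bp from a peak summit, 1 point a replicate, by the guanines that follow the box, by whether another G-box lies within 100 bp, and by annotation. In every replicate the shares rise from no guanine to guanine on both strands, and the class with 2 guanines on both strands, which holds only 26 boxes, reaches 26.9% to 46.2%. A summit can count for more than 1 box of the class with a neighbour, which raises its share.

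Neighbouring boxes and their spacing were examined next. Of the G-boxes with another G-box within 100 bp, 11.1%, 16.7%, 7.97% and 19.6% lay at a summit in replicates 1 to 4, against 1.91%, 4.19%, 1.31% and 5.79% of boxes that stood alone. The difference was 10.6 ± 3.25 percentage points, with the same sign in 4 of 4 replicates (exact permutation p = 0.13, adjusted 0.2), and the means were 19.2% and 5.40% outside annotated genes, a check chosen after the data were seen. A summit at 1 box of a pair can also count for its neighbour, which raises the paired share whatever the binding of each box. The direction is thus partly set by the rule, and nothing is concluded from this p-value. The boxes of a pair share a summit and are therefore not independent of each other. The members held 212 pairs of neighbouring boxes, whose centres lay 7 to 139 bp apart with a median of 33 bp (the plot of spacings). The most frequent spacing was 11 bp, with 18 pairs in 18 members (8.49%), ahead of 20 bp with 9 pairs. It was also the most frequent spacing in the nuclear genome, where 95 of 1647 pairs under 200 bp had it (5.77%), so that its excess is a property of the genome as well as of the members.

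Seen from the genome, 18 of the 95 pairs at 11 bp lay in a member (18.9%), against 176 of the 1094 pairs at 12 to 99 bp (16.1%). Outside annotated genes the shares were 15 of 45 (33.3%) and 128 of 575 (22.3%). Pairs at 40 to 49 bp reached 23.9%, pairs at 20 to 29 bp 18.7% and pairs at 30 to 39 bp 18.8%, while only 3 of 54 pairs at 6 to 9 bp did so (5.56%). The bound share therefore did not peak at 11 bp over all pairs. Of the 18 members with such a pair, 5 were in all 4 lists and 15 were outside annotated genes. Folds ran from 3.65 to 34.1 in replicate 4. The median fold was 6.18, 4.85, 5.97 and 7.09 in replicates 1 to 4, over 11, 14, 10 and 15 peaks. For all members it was 5.59, 5.19, 4.92 and 6.62, so that only replicate 2 had the lower median at these pairs. Among these members, *PIL1* was the highest. *AT1G01260*, known as *JAM2*, a bHLH repressor of jasmonate responses, had 9.56, 13.2, 6.87 and 13.2, and *HB53*, a homeobox gene, had no peak in replicate 1 and 5.01, 5.25 and 10.6 in the others. These last pairs have the same 5 bases, aactt, between the boxes, and they are the only pairs in the genome with that linker on either strand. The linker between the G-box and the PBE-box at *ATHB-2* reads aagtt, its complement on the other strand. The smallest spacing of all was at *AT1G69030*, where both boxes lay 7 bp apart and the fold was 6.71 and 4.51 in replicates 2 and 4.

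**Figure D4:**
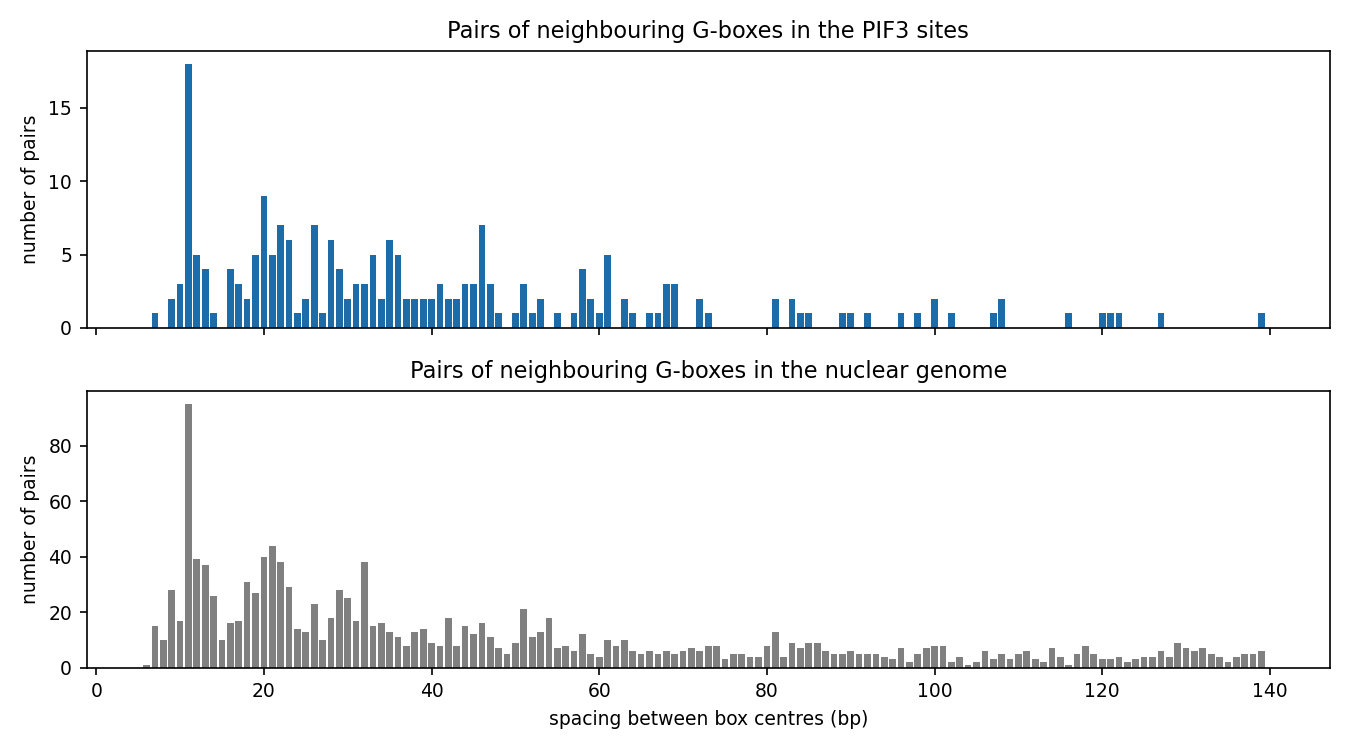
Number of pairs of neighbouring G-boxes by the distance between their centres, up to 140 bp, in the PIF3 sites (top) and in the nuclear genome (bottom). Both distributions have their highest bar at 11 bp, with 18 and 95 pairs, and pairs in the sites cannot lie farther apart than the window around the summit allows.

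A PBE-box was present beside the G-box in 140 members (26.3%), against 44.4% of the sites without a G-box, 12.7% of genomic windows of the same length with a G-box and 9.23% of all genomic windows. It was found in 107 of the 366 members with 1 G-box (29.2%) and in 33 of the 166 with 2 or more (19.9%). The nearest PBE-box lay a median of 40.5 bp from a G-box. The most frequent spacing was 11 bp, with 8 of the 140 members, only just ahead of 7 bp with 6. It was not compared with the spacing of such boxes in the genome. The members at 11 bp included the *ATHB-2* site and *PIN3*, an auxin efflux carrier gene with folds of 4.90 and 6.48 in replicates 2 and 4. *PRR9*, a clock gene, was also among them, with 4.26, 3.67 and 7.47 in replicates 2 to 4. Median log2 fold differed between members with and without a PBE-box by 0.02, -0.02, -0.13 and 0.09, with a mean of -0.01 ± 0.09 and both signs (exact permutation p = 0.75, adjusted 0.75), and the mean was 0.04 without replicate 3. Over members in all 4 lists it was -0.08, -0.24, -0.26 and -0.25, with a mean of -0.21 ± 0.09 and the same sign in 4 of 4 replicates (exact permutation p = 0.13).

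Other motifs were searched on both strands with the G-boxes themselves masked where they could overlap. Outside the G-boxes, E-boxes (CANNTG) were found in 61.5% of members against 50.4% of genomic windows with a G-box, ACGTGG in 19.9% against 5.94%, ACGTGT in 13.0% against 7.02%, and GACGTG in 18.8% against 6.70%. ACGTGG and ACGTGT are the core of elements that abscisic acid-responsive bZIP factors bind. The TCP-type motifs GGNCCC and TGGGCC were found in 25% and 17.7% against 7.07% and 5.58%. The sites without a G-box held E-boxes at 70.7%, above the members, the 3 motifs with ACGTG, in the order given, at 14.7%, 10.7% and 10.2%, and the TCP-type motifs at 25% and 15.6%. The shares of these last 5 motifs were thus above the genomic ones at both kinds of site. In contrast, TATAAA (20.9% against 23.4%), GATA (73.1% against 77.1%), the evening element AAATATCT (2.63% against 2.56%) and AACGTT (5.08% against 4.90%) were at similar or lower shares in members, and AAACCCTA was at 0.94% against 2.30%. These shares are descriptions with no test, because sites are not replicates, and the TCP-type motifs are themselves rich in G and C. The genomic windows were not matched for location. Of the nuclear G-boxes 29.3% lay in coding sequence, against 3.38% of members, and the part of location in these shares was not tested.

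The summits lay close to the boxes. The median distance from the mean summit to the nearest G-box centre was 17.5 bp, and in 57 members the mean summit fell inside the box. Measured from the summits of each list, the median was 17, 19.5, 12.5 and 16.5 bp in replicates 1 to 4. The median was 13.5, 15.5, 12 and 10.5 bp at members with 2 or more boxes and 18.5, 23.5, 13.5 and 19.5 bp at members with 1. This is a description with no test, since the rule used the distance and more boxes in a window shorten it whatever the position of the summit. The mean difference was -5.88 bp, -3.67 bp without replicate 4, -3.25 bp over members in all 4 lists and -1.50 bp over peaks at a p of 1e-10 or lower, and replicate 3 had the opposite sign under each of these alternatives. In 98 of the 166 members with several boxes (59.0%), the mean summit lay between the outermost boxes. The smallest distance, 0.5 bp, was shared by 16 members, among them the intergenic site near *LYK4*, a site between *PIF6* and *IAA30*, and the site at *EXO70D1* with folds of 8.75, 11, 10.3 and 16.6. At the edge of the rule, the farthest boxes inside lay 98.5, 97.5 and 96.5 bp from the mean summit at *AT3G61826*, *AT3G58060* and *LCR19*, with folds from 3.86 to 8.31. The first boxes outside lay 100, 108 and 112 bp away, at sites near *PDX1.2*, *AT1G20890* and *LDOX* with folds from 2.89 to 5.01.

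The members lay mostly outside genes. The mean summit of 397 members (74.6%) fell in no annotated gene, 69 (13.0%) in a 5′ UTR, 31 (5.83%) in a non-coding or other transcribed gene, 18 (3.38%) in coding sequence, 10 (1.88%) in a 3′ UTR and 7 (1.32%) in an intron. The sites without a G-box were distributed much like the members, with 68.4% outside genes, 17.7% in 5′ UTRs and 4.32% in coding sequence. G-boxes of the genome were distributed otherwise, with 44.7% outside genes, 7.53% in 5′ UTRs and 29.3% in coding sequence. In each list, 5.69%, 9.32%, 4.10% and 13.2% of boxes outside genes lay at a summit, against 0.801%, 2.10%, 0.141% and 1.11% of boxes in coding sequence. The difference was 7.03 ± 3.62 percentage points with the same sign in 4 of 4 replicates (exact permutation p = 0.13, adjusted 0.2). Boxes in 5′ UTRs came close to those outside genes, at 4.58%, 10.3%, 4.30% and 13.5%. Among sites inside genes, the best ranked in coding sequence was at *RHA2B*, a RING-type ubiquitin ligase gene, 90 bp downstream of its start, with folds of 6.11, 7.90, 8.72 and 15.7. The best in a 5′ UTR was at *AT4G17420*, with 7.38, 11.5, 7.25 and 14.8, the best in an intron was in *AT5G14690*, with 9.51, 7.67, 6.67 and 12.9, and the best in a 3′ UTR was in *CYP71B3*, with 6.73, 3.89, 6.43 and 9.61. The best in a non-coding gene was the leading site in *AT5G01475*, with 9.23, 12.2, 8.42 and 14.7.

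A gene was given to an intergenic site if its transcription start site (TSS) lay at most 5 kb downstream with no annotated gene between. This gave 478 genes, or 1.26% of the 37899 annotated nuclear genes, of which 407 encode proteins. They came from 350 members, 143 of which were given 2 genes, while 47 intergenic members were given none. The median distance from site to TSS was 1005 bp, and 143 of the genes (29.9%) had a site within 500 bp. To the nearest protein-coding TSS in either direction, the median distance was 821 bp for the members, the same as for the sites without a G-box, and 368 members (69.2%) lay upstream of that TSS. Only 15 genes were given 2 sites each, among them *ATHB-2*, *DWF4*, *IAA30*, *GolS2* and *CRF10*.

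Groups of genes with known roles in light and hormone responses were then read against that background of 1.26% (the plot of list genes). The lists were drawn up with earlier results of these data known, so that their counts describe the sites and carry no test. In all, 33 of 197 listed genes found in the annotation were given a site (16.8%). Among phytochrome and bHLH light-signaling genes, 3 of 26 were given one. They were *PIL1*, *HFR1*, which encodes an atypical bHLH that blocks PIF proteins, with 5.59, 4.62, 5.02 and 7.08, and *PHYB*, the main photoreceptor of red light, with 9.35 and 14.4 in replicates 3 and 4 and no peak in the others. *PIF6* was given sites only when non-coding genes were left out. There, summits of replicates 2 and 4 (10.1 and 18.6) and summits of replicates 1 and 3 (10.2 and 7.23) made separate sites, 484 and 643 bp upstream of *PIF6*, and both sites were given to *IAA30* on the other side.

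B-box genes were represented by *BBX28*, *BBX29* and *BBX21*, the last with 6.21, 5.31 and 7.56 in replicates 1, 2 and 4, or 3 of 14. Of the HD-Zip II genes, 3 of 10 were given a site. *ATHB-2* had sites 3055 and 4860 bp upstream, each with 2 G-boxes and present in all 4 lists, with folds of 8.38, 10.8, 4.36 and 11 at the nearer and 8.24, 8.95, 6.48 and 11.6 at the farther. The leading site shown above lay farther out, at -5674 bp from this TSS and beyond the limit, and was the strongest of these. *HAT1* had 6.99, 14.1, 5.36 and 14.3. *HAT2* and *HAT3* were added when only protein-coding genes were counted, since the non-coding genes *AT5G06985* and *AT3G09365* each cover a site upstream of them.

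Of 29 *Aux/IAA* genes, which encode repressors of auxin signaling, 5 were given a site, led after *IAA30* by *IAA2* with 6.85, 8.53, 4.95 and 13.5. *IAA19* had 4.4, 3.79, 4.65 and 9.40, and *IAA11* and *IAA29* were each in only 2 lists, with folds from 4.14 to 5.56. Of 14 auxin synthesis genes, *YUC8* and *YUC9*, which encode flavin monooxygenases, were given one. *YUC8*, with 2 G-boxes, had 6.52, 9.70, 9.11 and 16.8 and was in all 4 lists, and *YUC9* had 5.58, 8.74 and 8.84 in replicates 1, 2 and 4. For gibberellin, 2 of 23 genes were given a site, the synthesis gene *GA3OX1* and the DELLA gene *GAI*, with folds from 3.52 to 6.20. The site with 3 G-boxes near *RGA1*, another DELLA gene, lies in the non-coding gene *AT2G04015*, at -1558 bp from the TSS of *RGA1*, with 4.82, 5.33, 4.68 and 12.2, and was given to no gene.

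Of 16 brassinosteroid genes, 4 were given a site. *BIM1* had 9.25, 12.3, 8.45 and 17.2. The receptor gene *BRI1* had 5.96, 5.01, 5.64 and 5.99, the least spread of the list genes in all 4 lists, and *DWF4*, a synthesis gene, and *BEE1*, a bHLH gene, were in only replicates 2 and 4. Of 22 abscisic acid genes, 6 were given a site. *AFP1*, *AFP2* and *AFP3* are ABI5-binding protein genes, and *AFP3* was the strongest of these. The bZIP gene *ABF3* had 6.25, 7.52, 4.01 and 6.74, and the receptor genes *PYL3* and *PYL5* were in only 2 lists, with 3.55 to 7.57. The clock list had 1 of 15, *PRR9*. The chlorophyll and photosynthesis list had 2 of 19, the carotenoid synthesis gene *PSY* with 3.92 and 4.37 in 2 lists and *PSBQ-2*, a photosystem II subunit gene, with 7.10, 4.69, 5.68 and 7.40. The reference list, genes often used for normalization, also had 2 of 9. *ACT2* had 6.18 and 3.65 in replicates 1 and 4, and *ACT7* had 3.80, 5.76 and 6.66 in replicates 1, 2 and 4. Of the 39 sites given to listed genes under either count, 19 were in all 4 lists (48.7%, against 22.6% of all members) and 18 held 2 or more G-boxes (46.2%, against 31.2%). The listed genes were chosen with earlier results known, and nothing is read from this.

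**Figure D5:**
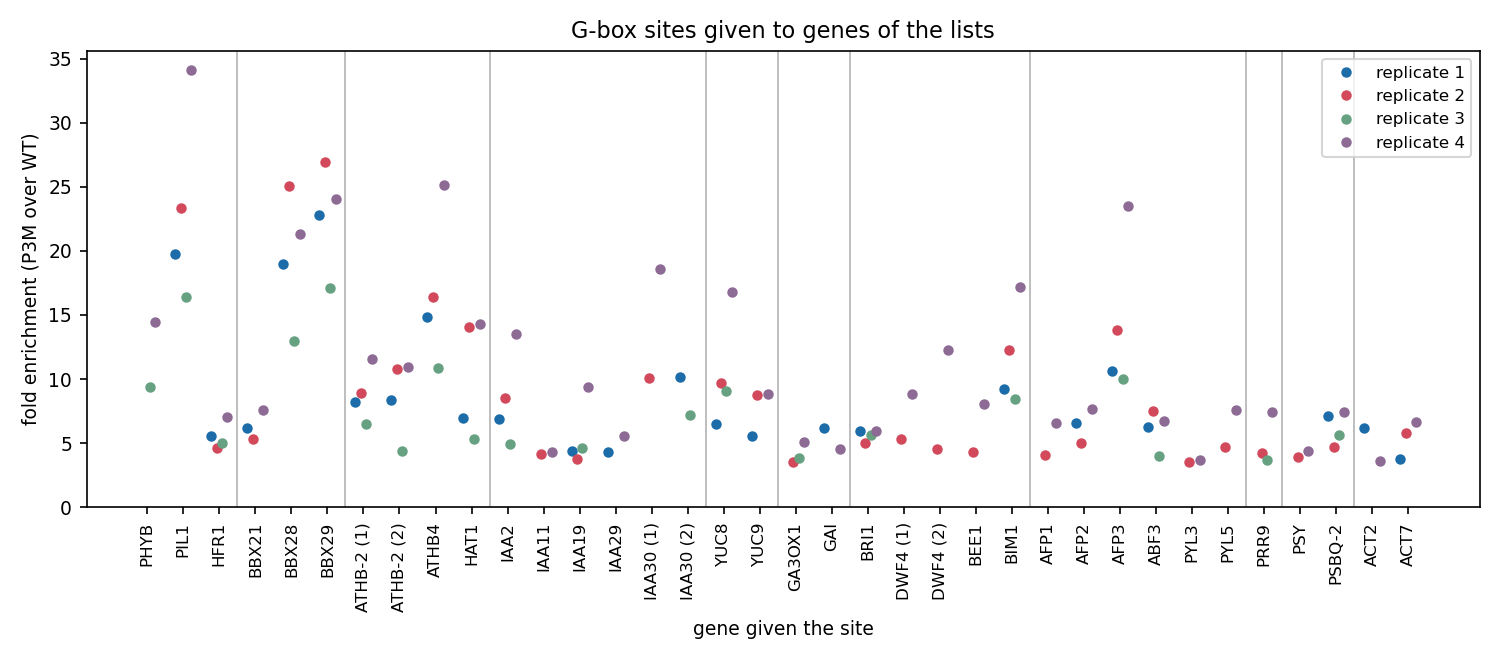
Fold enrichment at the G-box sites given to genes of the 11 lists, 1 point for each replicate with a peak, grouped by list (vertical lines) in the order of the text; numbers in brackets mark the sites of a gene given 2. *PIL1*, *BBX28*, *BBX29*, *ATHB4* and *AFP3* exceed 20 in at least 1 replicate, while the reference genes *ACT2* and *ACT7* lie between 3.65 and 6.66.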

How the data were processed

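Peaks came from 4 lists, 1 for each pair of P3M and WT libraries (8 ChIP-seq libraries, each from 4 pooled immunoprecipitates). The authors processed reads with CASAVA 1.7.0, aligned them to TAIR9 with Bowtie 0.12.7 and called peaks with MACS 1.4.0rc2. The authors deposited, for each peak, the count of tags in it. The fold enrichment is the authors' ratio over the local background. The score is, as deposited by the authors, -10 times log10 of the peak's p-value, and the false discovery rate is deposited in percent. No value was rescaled, library totals were not given, and WT values were not analysed here.

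Bases and annotation were read from RefSeq's TAIR10.1 assembly. Of the study's G-box probes, 5 of 5 matched it once and 4 overlapped a member. Distances were counted from box centres, and a box counted by its nearest base would give 533 members. Differences of medians or shares were taken within each replicate and tested with an exact sign-flip permutation test over replicates. Sites and boxes were never resampled. The summit distance by number of boxes had been planned as a test and is given as a description, and p-values were adjusted over the other 8 differences (with it, the lowest adjusted p was 0.188 in place of 0.2). The procedure was checked on simulated lists.

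Members and 11 gene lists were chosen with earlier results of these data known, and RGA, PIF8, FHY1 and FAR1 were not matched by symbol. Sites were named if they carry a study probe, hold 4 G-boxes, hold 3 in all 4 lists, are among the leading 10, lie at the distance or spacing extremes, have uniform flanks within the leading 20, lead an annotation class or belong to a listed gene. The other genes named at a pair spaced 11 bp, at GG on both strands or with 2 sites were chosen after the values were seen. Alternatives required 3 replicates or a p of 1e-10, joined at 50 or 200 bp, used boxes or summits within 50 bp, counted protein-coding genes only, set the TSS limit to 3 kb, used means or scores, or left out each replicate. Calculations used Python 3.11.15, numpy 2.4.6, pandas 2.3.3 and scipy 1.17.1, and figures matplotlib 3.10.9.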

Additional observations from a re-analysis of the deposited data

Results flagged for a closer look

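In the difference of median log2 fold between members with 2 or more G-boxes and members with 1, replicate 3 stood apart from the other replicates with -0.05, against 0.06 to 0.07 in replicates 1, 2 and 4. Its gap to the nearest value was 0.872 of the range, above the 95% critical value of Dixon's test for 4 values, which chance exceeds in about 1 of 20 groups, and 9 sets of differences were examined. Replicate 3 has the fewest peaks, 526, and 84 and 147 member peaks in these classes, and its part was not tested.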

How the results depend on the processing

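Each of the 9 differences was recomputed under its alternatives, and 3 of 74 values turned in sign. The difference in fold between 2 or more boxes and 1 turned from 0.04 to -0.05 with only members in all 4 lists and to -0.01 with peaks at a p of 1e-10 or lower, and that by PBE-box from -0.01 to 0.04 without replicate 3, with a range of -0.07 to 0.04 over the replicates left out and -0.21 with only members in all 4 lists. With peaks at a p of 1e-10 or lower, the differences in share of genomic boxes were 3.16 (flanks), 4.36 (location) and 6.87 (next box) percentage points, in 4 of 4 replicates. No alternative can pass 0.05, so this shows direction only, and for the next box the direction is partly set by the rule. Of 67 values of counts and shares, 53 stayed within 1.5 times (counts), the exact 95% interval (shares) or the SD between replicates (distance). With 3 replicates required there were 283 members, 268 genes, 38.2% of members with 2 or more boxes and a median distance of 14.5 bp. With peaks at a p of 1e-10 or lower there were 261 members, 246 genes and 13.5 bp. With boxes within 50 bp, 23.6% held 2 or more and the distance was 14.5 bp. Counting protein-coding genes only, 80.5% lay outside genes. Leaving out each replicate gave 313 to 489 members, 290 to 452 genes, 31.7% to 36.7% with 2 or more boxes and 13.5 to 17.5 bp. Without replicate 4 the counts were the lowest, 313 members and 290 genes, and 313 of those 313 lay at a member of the full set. That overlap is largely set by the rule, since a group from 2 lists remains one when a list is added. Nothing is concluded from it. The most frequent spacing was 11 bp under every alternative.

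No paired analysis was possible because the lists hold peaks of P3M over WT and no separate values of each genotype to block by number. Differences between classes of sites were taken within each list. Depth is unknown, and each class rests on 4 lists of unequal length.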
